A study of Mus musculus with 15 samples.

Results

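Liver RNA of H2D mice was compared with liver RNA of H1D mice, which ate the same diet and received the same carcinogen and differed in the number of maternal generations exposed to that diet. The comparison used 4 of the 10 long RNA libraries (2 pools for each group) and 2 of the 5 small RNA libraries (1 for each group), out of 15 libraries in the series, and was described across all genes. All animals were wild-type C57BL/6 males, killed at 40 weeks of age (labelled as 10 months). Both groups were injected with DEN (diethylnitrosamine, a carcinogen that liver cells activate) at 2 weeks of age and then kept on a high-fat diet with 60% of energy from fat. H1D mice were sons of F0 females and H2D mice sons of F1 females, in a line whose F0 females ate that diet from month 1 to month 3 of life and were mated to chow-fed males. The other groups give the levels around this contrast. H3D mice were sons of F2 females treated in the same way, NCD mice received DEN and chow, and Nor mice received PBS and chow.

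RNA of 4 to 8 animals of a group was combined into its pools, so p-values here rest on how pools differ and not on how animals differ. Each generation is 1 group, so maternal ancestry and the breeding cohort cannot be told apart. The labels give liver as the tissue and do not say how much tumour it held. Alb, the hepatocyte secretory protein albumin, stood at 63066 and 47901 FPKM in the H1D pools and 40360 and 33486 in the H2D pools. Alb was the labelled tissue's defining marker, and the 10 hepatocyte markers tested went both ways, as given below. FPKM is a fragment count scaled to transcript length and to the mapped fragments of the library. The sum of FPKM over genes ran from 607741 to 628484 in the 4 libraries, and mitochondrially encoded genes held 9.16% to 10.15% of it. The small RNA libraries held 7579463 miRNA reads in H1D and 8316744 in H2D.

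The acute phase response is the change in hepatocyte secretion that follows inflammation elsewhere in the body or in the liver. Interleukin-6 acts through the transcription factor STAT3, and interleukin-1 through NF-kB and C/EBP factors, to raise serum amyloid A, orosomucoid and other plasma proteins, while albumin and transthyretin are made less. Liver genes that differ between the sexes follow the pulses of growth hormone through STAT5, and in male mice these keep the major urinary protein genes high.

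Of 11557 genes tested with limma on log2(FPKM + 0.5), 16 rose in H2D and 1 fell at a Benjamini-Hochberg adjusted p below 0.05. This is a background of 0.147% called, 0.138% upwards and 0.00865% downwards. The adjusted p of the 17 genes lay between 0.0438 and 0.0481, just inside the threshold. The next gene, the growth factor receptor Egfr, was at 103 and 104 FPKM in H1D and 220 and 182 in H2D, with an adjusted p of 0.065. Without any adjustment, 577 genes were higher in H2D at p under 0.05 (4.99%) and 548 lower (4.74%). The pools did not overlap in 21.9% of genes with H2D above and 21.4% with H2D below, and the median log2 difference of all genes tested was -0.00075. The 17 calls rested on the spread estimated over all 5 groups. Leaving out either H2D pool, H1D pool 1 or either NCD pool left 0 calls in limma, with 592 to 957 genes at unadjusted p under 0.05, and the 17 genes kept their direction in each of these fits.

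**Figure D1:**
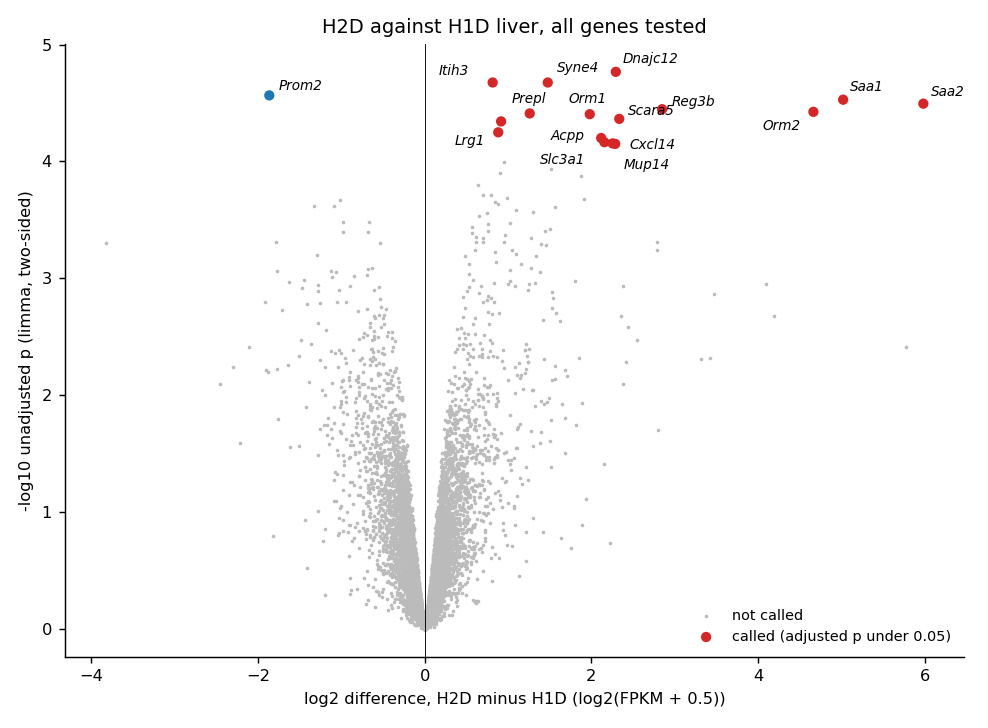
Log2 difference between H2D and H1D (x axis, log2(FPKM + 0.5)) against the size of the unadjusted limma p (y axis, -log10) for the 11557 genes tested, 1 point per gene. Genes that rose are red, the 1 that fell (Prom2) is blue, the called genes described in the text are named, and Saa1, Saa2 and Orm2 lie farthest to the right of them.

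Serum amyloid A genes led the rise. Saa1 and Saa2 encode the circulating acute phase apolipoproteins that ride on high-density lipoprotein. Saa1 (ENSMUSG00000074115, chromosome 7) was at 113 and 227 FPKM in the H1D pools and 3479 and 7849 in the H2D pools. Saa2 (ENSMUSG00000057465, beside it) went from 55.7 and 152 to 3639 and 9429 FPKM. In both genes the lower H2D pool lay far above the higher H1D pool. The log2 differences were 5.02 ± 0.60 for Saa1 and 5.98 ± 0.72 for Saa2 (limma SE, 2 pools per group, adjusted p = 0.0438 for each), or 32.5 and 63.3 times on the FPKM + 0.5 scale. The chow groups lay below H1D for Saa1. It ran from 51.0 to 84.3 FPKM over the NCD and Nor pools and was at 788 and 2378 in H3D, between H1D and H2D. Saa3, the third inducible member, made mainly outside hepatocytes, was at 10.6 and 7.74 FPKM in H1D and 25.9 and 24.9 in H2D and was not called (log2 difference 1.43 ± 0.37, adjusted p = 0.245). Saa1 and Saa2 are near-identical copies, and how reads were shared between them in the FPKM values is not given in the sources used here.

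Orosomucoids followed. Orm2 (chromosome 4, 63362449 to 63365877) and Orm1, the alpha-1-acid glycoproteins that bind drugs in plasma, are also close paralogs. Orm2 was at 19.3 and 81.3 FPKM in H1D and 794 and 1311 in H2D, a log2 difference of 4.66 ± 0.57. Orm1 was at 385 and 603 FPKM in H1D and 1721 and 2108 in H2D (1.98 ± 0.24). Neither gene overlapped between the groups, and H1D pool 2 was the higher H1D pool for both, as it was for Saa1 and Saa2. The adjusted p was 0.0438 for Orm1 and for Orm2.

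The stretches of 250 bases before a listed transcript start are shown for 4 genes that rose. Acute phase genes are known for C/EBP and STAT sites near their starts. The start used was not always the outer end of the gene's RefSeq span. The sequences are from RefSeq on GRCm38.p6, written 5′ to 3′ along the gene's strand, with matches in capitals (C/EBP, TTGCNNAA or its reverse TTNNGCAA, in Saa1, Saa2 and Orm2; STAT, TTCNNNGAA, which is its own reverse, in Reg3b).
Saa1, chr7:46742981-46743230, minus strand: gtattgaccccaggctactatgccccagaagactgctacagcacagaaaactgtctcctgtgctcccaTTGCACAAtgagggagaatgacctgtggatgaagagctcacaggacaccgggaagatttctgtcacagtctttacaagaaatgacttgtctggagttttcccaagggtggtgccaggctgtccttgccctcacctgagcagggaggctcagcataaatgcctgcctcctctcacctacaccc
Saa2, chr7:46751583-46751832, plus strand: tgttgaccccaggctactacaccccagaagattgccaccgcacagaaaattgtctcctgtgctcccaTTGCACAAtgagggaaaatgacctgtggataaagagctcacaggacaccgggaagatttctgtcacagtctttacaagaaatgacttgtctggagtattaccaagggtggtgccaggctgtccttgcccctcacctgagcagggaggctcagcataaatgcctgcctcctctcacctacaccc
Orm2, chr4:63362199-63362448, plus strand: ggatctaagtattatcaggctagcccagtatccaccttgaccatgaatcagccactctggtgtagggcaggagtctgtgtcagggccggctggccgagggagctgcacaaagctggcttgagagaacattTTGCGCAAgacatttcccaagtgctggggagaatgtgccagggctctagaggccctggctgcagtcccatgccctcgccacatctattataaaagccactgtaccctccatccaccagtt
Reg3b, chr6:78370635-78370884, plus strand: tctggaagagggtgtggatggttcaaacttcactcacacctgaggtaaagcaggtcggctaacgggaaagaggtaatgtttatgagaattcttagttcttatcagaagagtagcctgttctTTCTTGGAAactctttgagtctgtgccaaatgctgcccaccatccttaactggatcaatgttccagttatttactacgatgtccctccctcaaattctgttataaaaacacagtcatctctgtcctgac
The C/EBP match began 182 bases before the start used in Saa1, 183 in Saa2 and 120 in Orm2. The RefSeq span of Saa1 runs from 46740497 to 46743181, so most of its stretch, with the match, lies inside that span. The stretches of Cxcl14, Itih3, Mup14 and Prepl, not shown, also lie wholly or partly inside their gene spans. Of the 17 called genes, 13 had a promoter in the table, and 4 of these held the C/EBP letters (Slc3a1 is the other), against 9.57% of all 32536 promoters of the same length. The STAT letters were in 3 (Reg3b, Cxcl14 and Syne4), against 7.04%. For NF-kB only a narrow form of the consensus, with a fixed run of T, was searched. That form was found in 0 of the 13 on either strand and in 1.4% of all promoters. Other forms were not searched, so these counts do not show that the called genes lack NF-kB sites. The motifs share no called gene, and a match is a run of letters, not a measured binding site.

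Reg3b, a secreted C-type lectin with antibacterial activity known from the gut and pancreas, was listed at 0 and 0.058 FPKM in H1D and at 2.50 and 4.34 in H2D. These H2D pools are the only libraries in which it reached 1 FPKM, the level needed for testing, so it could be tested only if it was high there, and its call is not read as support. It was at most 0.776 FPKM in every other library. Itih3, an inter-alpha-trypsin inhibitor heavy chain that binds hyaluronan, was at 463 and 467 FPKM in H1D and 795 and 844 in H2D (0.82 ± 0.09). Lrg1, a leucine-rich glycoprotein of plasma induced by interleukin-6, was at 479 and 452 FPKM in H1D and 804 and 917 in H2D (0.88 ± 0.11, adjusted p = 0.0481). Itih3 and Lrg1 rose by less than 2-fold on the FPKM + 0.5 scale, and the pools of a group lay close together in each. In H3D, Lrg1 was at 952 and 793 FPKM, overlapping H2D, and Itih3 at 736 and 781, just below both H2D pools.

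In the acute phase list 34 genes were tested, of which 5 rose (Saa1, Saa2, Orm1, Orm2 and Itih3) and 0 fell. At unadjusted p under 0.05, 22 were higher and 6 lower, where the background is 4.99% and 4.74%. The median log2 difference was 0.53, against -0.00075 over all genes. The lower members included genes known to decline in the response. Serpina6, the plasma carrier of corticosteroids, was at 263 and 156 FPKM in H1D and 89.5 and 75.8 in H2D (-1.29 ± 0.24, adjusted p = 0.11). Ttr, the thyroid hormone carrier transthyretin, was at 3096 and 3223 FPKM in H1D and 2333 and 2166 in H2D (-0.49 ± 0.11, adjusted p = 0.177). Alb gave -0.58 ± 0.21 (adjusted p = 0.418). Both pools of H2D lay below both of H1D in each of these 3 genes. Of the 34 list genes, 9 had H2D below without overlap and 23 above (background 21.4% and 21.9%). Hamp, the iron hormone hepcidin and itself an interleukin-6 target, was at 1287 and 1427 FPKM in H1D and 1093 and 758 in H2D (-0.57 ± 0.49, adjusted p = 0.811).

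Of the 24 tested genes of the interleukin-6 and STAT3 pathway 0 were called, 9 were higher and 0 lower at unadjusted p under 0.05, and the median was 0.34. Stat3 itself was at 34.5 and 34.1 FPKM in H1D and 48.2 and 53.7 in H2D (0.56 ± 0.10, adjusted p = 0.099). Il1r1, the interleukin-1 receptor, was at 8.76 and 10.5 FPKM in H1D and 26.4 and 25.2 in H2D (1.38 ± 0.27, adjusted p = 0.129). Bcl3, an NF-kB cofactor, gave 0.85 ± 0.16 (adjusted p = 0.122). Nfkbiz, another one, gave 0.76 ± 0.17 (adjusted p = 0.174). The feedback inhibitor Socs3 was at 4.84 and 6.72 FPKM in H1D and 12.5 and 11.7 in H2D (1.02 ± 0.41, adjusted p = 0.473). None of these 5 genes overlapped between the groups, though most were named for their small p. Of the 24 list genes, 15 had H2D above without overlap and 1 below (background 21.9% and 21.4%).

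Over the 10 libraries, called genes with a pattern close to that of Saa1 were Saa2 (Pearson r of log2 values 0.998), Dnajc12 (0.988), Orm2 (0.983) and Syne4 (0.975). These r values are descriptions over 10 pools in 5 groups, which share each library's scaling. They were computed for called genes alone, which were chosen by their H1D and H2D values. High r values follow in part from that choice, and r over all genes was not computed. Dnajc12, a co-chaperone of the aromatic amino acid hydroxylases such as phenylalanine hydroxylase, was at 7.41 and 11.5 FPKM in H1D and 44.5 and 50.1 in H2D. Its log2 difference was 2.29 ± 0.25, with the smallest unadjusted p of all genes (1.71e-05). Syne4, a nesprin that links the nuclear envelope to kinesin, was at 1.08 and 1.16 FPKM in H1D and 3.54 and 4.54 in H2D (1.48 ± 0.17).

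The other genes that rose belong to transport, signalling and secretion. Scara5, a scavenger receptor that takes up ferritin, was at 1.38 and 3.02 FPKM in H1D and 11.98 and 12.97 in H2D (2.34 ± 0.29). Cxcl14, a chemokine that acts on myeloid cells, was at 1.57 and 3.61 FPKM in H1D and 16.1 and 11.7 in H2D (2.29 ± 0.31), and was higher still in H3D at 20.2 and 27.0. Cxcl14 was the 1 call among 15 tested chemokines, whose median was 0.02. Acpp, the prostatic acid phosphatase that also acts as an ectonucleotidase, was at 0.337 and 0.791 FPKM in H1D and 4.07 and 3.96 in H2D (2.12 ± 0.28). For Acpp both H2D pools also lay above the 8 pools of all other groups. The same held for 10 of the 16 genes that rose, Acpp included, which were chosen for high H2D values.

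Slc3a1 and Prepl are neighbours on chromosome 17. Slc3a1, the heavy subunit of the cystine and basic amino acid transporter that is deficient in cystinuria, was at 23.4 and 15.8 FPKM in H1D and 88.7 and 86.4 in H2D (2.16 ± 0.29). Prepl, a serine hydrolase of the prolyl oligopeptidase family, was at 11.3 and 9.51 FPKM in H1D and 26.4 and 24.8 in H2D (1.26 ± 0.16). Their RefSeq spans, 85028347 to 85064241 on the plus strand and 85062511 to 85090504 on the minus strand (GRCm38.p6), share 1731 bases. Whether reads were counted by strand is not given in the sources used here, so reads of the shared stretch may have been given to either gene.

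Prom2, a pentaspan membrane protein of cell protrusions related to prominin-1, was the 1 gene that fell. It was at 4.26 and 2.96 FPKM in H1D and 0.462 and 0.792 in H2D, a log2 difference of -1.86 ± 0.22 with an adjusted p of 0.0438. It was listed at 0 in both Nor pools and stood at 2.91 and 2.52 FPKM in NCD and 1.59 and 2.097 in H3D. The H2D pools were the lowest of the 8 libraries from DEN-treated mice.

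**Figure D2:**
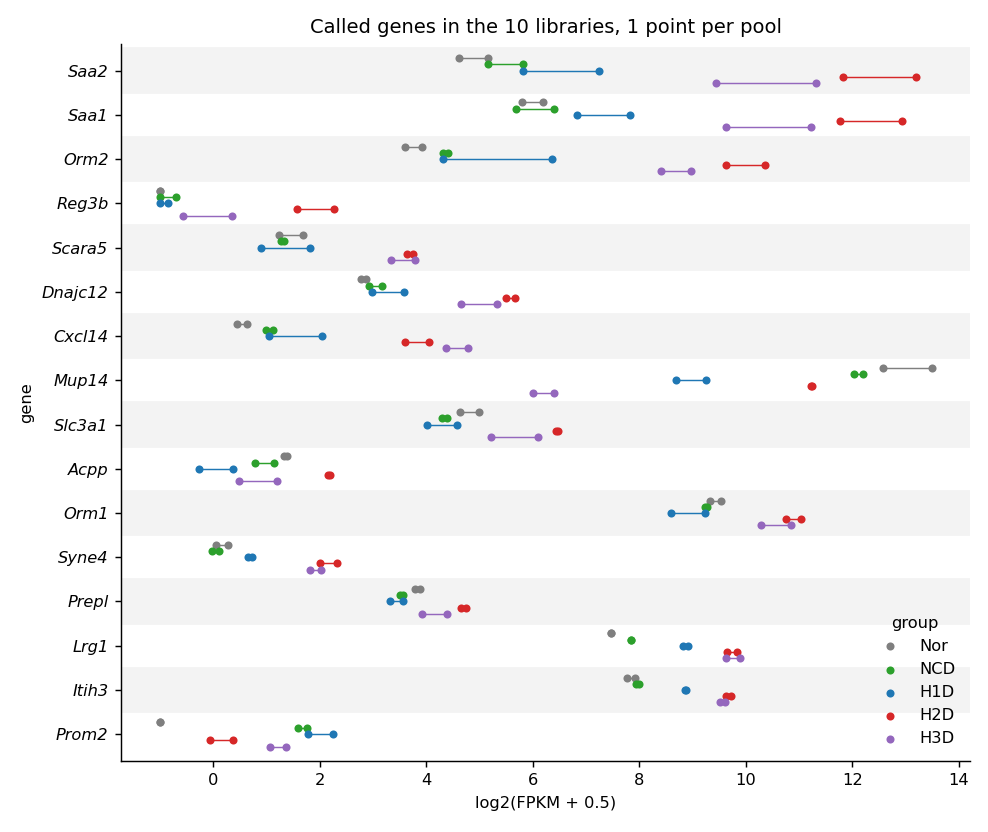
The called genes described in the text (16, y axis) in the 10 long RNA libraries, as log2(FPKM + 0.5) on the x axis, with 1 point per pool, the pools of a group joined and groups in colour. The H2D pools (red) of Saa1, Saa2, Orm2 and Reg3b, among other genes that rose, stand above the pools of all other groups. H3D pools lie between H1D and H2D for most genes that rose, which were chosen for low H1D and high H2D values.

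The 16 genes that rose were chosen for low H1D and high H2D values, so where other groups fall follows in part from that choice. The share over all genes was not computed, and Reg3b is among the 16. Of these 16 genes, 15 had both H3D pools above both H1D pools, and 11 had both H3D pools below both H2D pools. In 15 both H2D pools were above all NCD and Nor pools. The exception in each of the 2 counts of 15 was Mup14, a major urinary protein (lipocalins that carry pheromones in male urine). Mup14 was at 612 and 414 FPKM in H1D, 2398 and 2414 in H2D (2.26 ± 0.30, adjusted p = 0.0481), while the H3D pools held 63.6 and 84.0. It stood at 4190 and 4697 FPKM in NCD and at 11530 and 6116 in Nor. H2D was thus the nearest to the chow groups of the 3 high-fat groups, and H3D the farthest.

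The Mup genes are a block of near-identical copies on chromosome 4, so values of single members are uncertain. Of 18 tested, 17 had a positive log2 difference, 14 had both H2D pools above both H1D pools (background 21.9%), and 12 had an unadjusted p under 0.05. Their median was 1.28, in a range from -0.52 to 2.26. The Mup genes were gathered by their name after values had been seen. How reads shared by copies were treated is not given in the sources used here, and this can affect the sum over the family too. That sum was 9604 and 10697 FPKM in H1D and 21182 and 18583 in H2D. The sum was 4055 and 5605 FPKM in H3D, 39950 and 43327 in NCD and 87594 and 43734 in Nor.

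Male-biased and female-biased liver genes had medians of opposite sign. In the male-biased list, to which several Mup genes belong, 0 of 32 tested genes were called, 16 were higher and 0 lower at unadjusted p under 0.05, and the median was 0.84. C8a, a chain of the complement membrane attack complex, was at 163 and 158 FPKM in H1D and 329 and 312 in H2D (0.99 ± 0.15, adjusted p = 0.0886). Hsd3b5, a male-specific steroid dehydrogenase, was at 6.26 and 5.72 FPKM in H1D and 19.96 and 10.1 in H2D (1.18 ± 0.34, adjusted p = 0.301). Serpina1e, an alpha-1-antitrypsin paralog, gave 1.26 ± 0.32 (adjusted p = 0.235). In all 3 genes the groups did not overlap. Of the 32 list genes, 23 had H2D above without overlap and 2 below (background 21.9% and 21.4%).

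In the female-biased list 0 of 30 were called, 1 was higher and 8 lower at unadjusted p under 0.05, and the median was -0.54. Cyp2a4, a testosterone hydroxylase, was at 1601 and 1539 FPKM in H1D and 637 and 562 in H2D (-1.39 ± 0.39, adjusted p = 0.29). Cyp2b9 was at 106 and 102 FPKM in H1D and 44.9 and 40.3 in H2D (-1.29 ± 0.29, adjusted p = 0.191). Cyp2b13 gave -1.64 ± 0.44 (adjusted p = 0.255). The 1 higher member was Cyp17a1, a steroid hydroxylase and lyase, at 16.4 and 27.5 FPKM in H1D and 72.1 and 87.5 in H2D (1.88 ± 0.27, adjusted p = 0.0728). All were males, so these are differences in level among male livers.

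Amino acid breakdown genes mostly had positive differences (27 of 29). Of 29 urea cycle and amino acid genes 0 were called, 16 were higher and 1 lower at unadjusted p under 0.05, and the median was 0.51. Sds, serine dehydratase, was at 44.7 and 55.8 FPKM in H1D and 113 and 101 in H2D (1.09 ± 0.18, adjusted p = 0.091). Tat, tyrosine aminotransferase, was at 288 and 337 FPKM in H1D and 652 and 564 in H2D (0.96 ± 0.17, adjusted p = 0.099). Slc25a15, the mitochondrial ornithine carrier, and Aass, an enzyme of lysine breakdown, gave 0.70 ± 0.12 and 0.70 ± 0.15 (adjusted p = 0.099 and 0.154). Both H2D pools lay above both H1D pools in these 4 genes, as in 19 of the 29, with 2 below (background 21.9% and 21.4%).

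Of 37 complement and coagulation genes 15 were higher and 1 lower at unadjusted p under 0.05, with a median of 0.12. C9, which forms the membrane pore, was at 131 and 160 FPKM in H1D and 347 and 359 in H2D (1.28 ± 0.22, adjusted p = 0.099). Pros1, the anticoagulant protein S, was at 26.0 and 30.3 FPKM in H1D and 42.8 and 43.7 in H2D (0.61 ± 0.11, adjusted p = 0.099).

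Lists of antioxidant defence and xenobiotic handling had medians below 0 and no call. NRF2 is the transcription factor that senses oxidants and electrophiles. Of its 35 tested targets 0 were called, 0 were higher and 23 lower at unadjusted p under 0.05, and the median was -0.63. Srxn1, sulfiredoxin, was at 42.8 and 51.3 FPKM in H1D and 26.2 and 18.2 in H2D (-1.09 ± 0.17, adjusted p = 0.0886). Gstm1, a glutathione S-transferase, was at 1059 and 1905 FPKM in H1D and 663 and 393 in H2D (-1.47 ± 0.30, adjusted p = 0.138). Slc7a11, the cystine and glutamate exchanger, was at 3.17 and 6.999 FPKM in H1D and 1.61 and 0.418 in H2D (-1.91 ± 0.41, adjusted p = 0.154). H2D lay below H1D without overlap in all 3, as in 23 of the 35, with 3 above (background 21.4% and 21.9%). Slc7a11 was at 7.65 and 7.39 FPKM in H3D, level with the higher H1D pool.

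Among 48 genes of the xenobiotic receptors CAR and PXR 0 were called, 2 were higher and 12 lower at unadjusted p under 0.05, and the median was -0.30. Ces2c, a carboxylesterase, was at 27.1 and 20.3 FPKM in H1D and 10.0 and 8.17 in H2D (-1.33 ± 0.21, adjusted p = 0.0886). Cyp2a5, a coumarin hydroxylase, was at 238 and 428 FPKM in H1D and 82.3 and 104 in H2D (-1.78 ± 0.32, adjusted p = 0.099). Cyp3a11, the main PXR target, was at 310 and 337 FPKM in H1D and 164 in each H2D pool (-0.98 ± 0.42, adjusted p = 0.512). The H2D pools lay below the H1D pools in all 3 genes, as in 18 of the 48, with 4 above (background 21.4% and 21.9%).

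**Figure D3:**
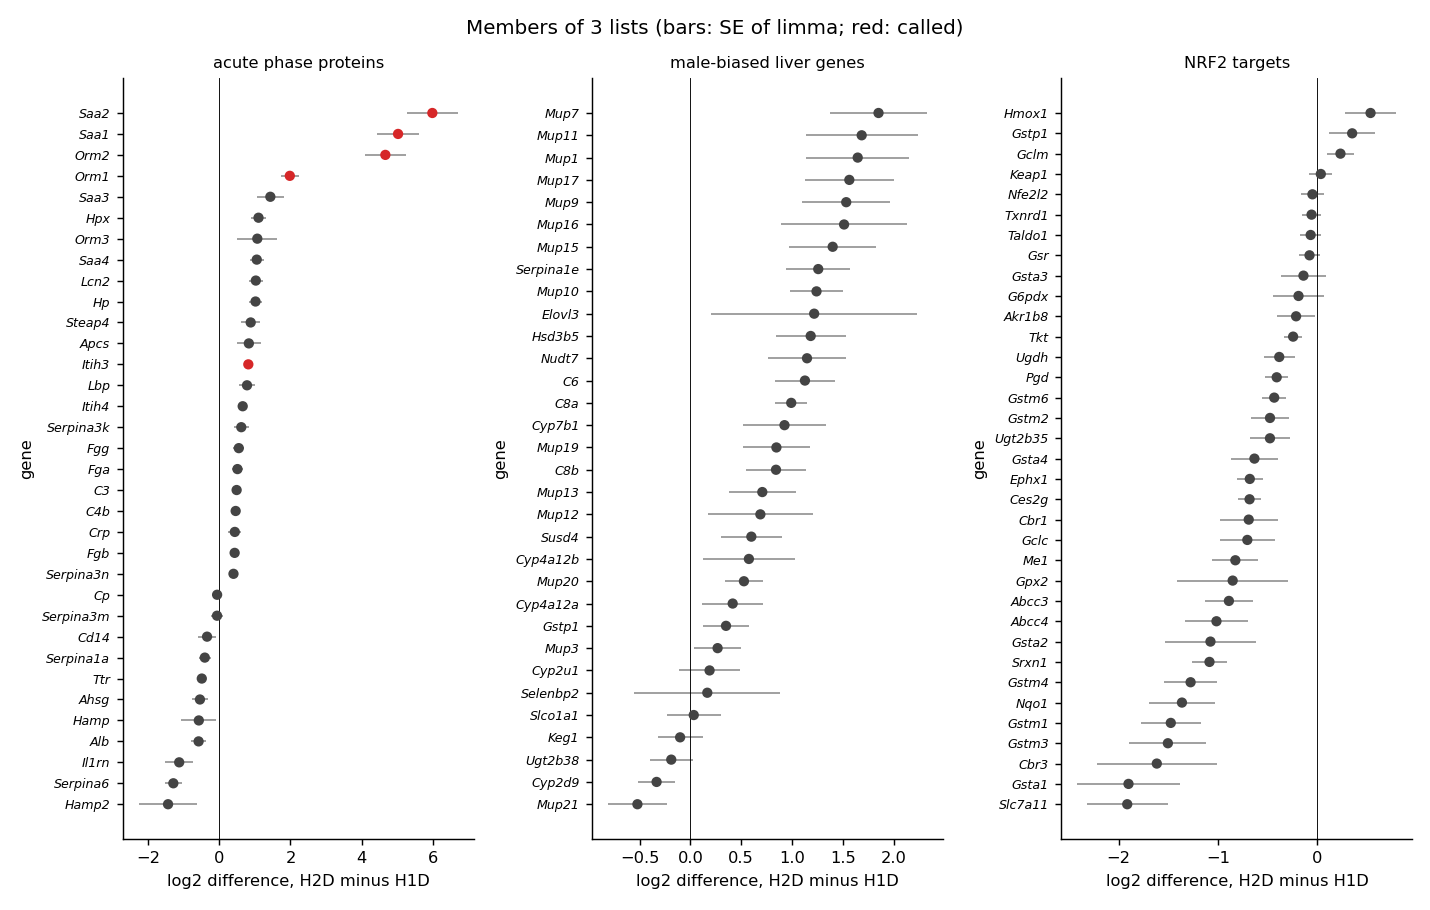
Log2 difference between H2D and H1D (x axis) with its limma SE (bars) for each tested member (y axis) of the acute phase list, the male-biased list and the NRF2 list. Red points are called. The 5 called genes are all in the acute phase panel, most male-biased genes lie right of 0 and 31 of 35 NRF2 targets left of it.

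Immune lists were split. Of 36 interferon-stimulated genes 0 were called, 0 were higher and 17 lower at unadjusted p under 0.05, and the median was -0.56. Igtp, an interferon-gamma-induced GTPase, was at 31.5 and 30.3 FPKM in H1D and 18.1 and 14.7 in H2D (-0.90 ± 0.26, adjusted p = 0.298). Its relative Iigp1 gave -0.75 ± 0.21 (adjusted p = 0.294). Of 19 antigen presentation genes 0 were called, 5 were lower and 0 higher at unadjusted p under 0.05, and all 19 had a negative log2 difference (median -0.26). The class I gene H2-K1 was at 700 and 658 FPKM in H1D and 587 and 510 in H2D (-0.31 ± 0.11, adjusted p = 0.404).

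No neutrophil gene was called, and H1D pool 2 stood apart from H1D pool 1 in several. S100a8, a subunit of the alarmin calprotectin, was at 8.79 and 49.9 FPKM in H1D, with 215 and 249 in the H2D pools and 132 and 418 in the H3D pools (H2D minus H1D 3.42 ± 0.89, adjusted p = 0.245). Mpo, the granule peroxidase, was at 0.0148 and 0.607 FPKM in H1D and 3.47 and 6.31 in H2D. Ltf, lactoferrin, was at 0.0514 and 1.06 FPKM in H1D and 4.85 and 7.20 in H2D. In all 3 genes H1D pool 2 was the nearer to H2D, as it was for Saa1, Saa2, Orm1 and Orm2. For Saa3 H1D pool 1 was the nearer. Ly6g, the defining surface marker, was below the level tested, at 0.0469 and 0.443 FPKM in H1D and 0.540 and 0.274 in H2D, and these overlapped. Of the 20 list members tested, 12, Mpo and Ltf among them, had passed the filter on low values only through H2D or H3D pools, so they are given without a test and no count or median of the list is given as a result. Lcn2, lipocalin 2, made by both neutrophils and stressed hepatocytes, was at 709 and 745 FPKM in H1D and 1216 and 1803 in H2D (1.03 ± 0.21, adjusted p = 0.137). In bulk liver more cells of a type and more RNA per cell cannot be told apart, and the part of neutrophil RNA in the rise of the acute phase genes was not tested.

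Lists of other cell types held no call either. Of 10 hepatocyte markers 0 were called, with 4 higher and 4 lower at unadjusted p under 0.05 (median -0.05). The Kupffer cell marker Clec4f was at 34.6 and 56.7 FPKM in H1D and 58.7 and 56.9 in H2D, so H1D pool 2 was level with both H2D pools. Of 25 macrophage markers 0 were called and 3 were higher and 0 lower at unadjusted p under 0.05 (median 0.31). Of 8 erythroid genes 0 were called and 5 were higher at unadjusted p under 0.05 (median 1.10), and 2 of the 8 had passed the filter through H2D or H3D pools. Alas2, the erythroid haem synthesis enzyme, was at 12.7 and 18.7 FPKM in H1D and 29.0 and 35.6 in H2D (1.04 ± 0.41, adjusted p = 0.466). Endothelial, lymphocyte and cholangiocyte markers had 0 calls in 16, 9 and 8 genes, with medians of -0.11, -0.10 and -0.33. The bile duct markers Krt19 and Epcam were below the level tested. In the stellate cell list 0 of 25 were called, with 1 higher and 2 lower at unadjusted p under 0.05 (median -0.07). Acta2, smooth muscle actin, was at 5.62 and 3.75 FPKM in H1D and 1.85 and 2.15 in H2D (-1.03 ± 0.26, adjusted p = 0.235). The stellate cell markers Lrat and Des overlapped between the groups. Lrat was at 4.33 and 7.598 FPKM in H1D and 5.57 and 5.84 in H2D. Des was at 1.07 and 1.599 FPKM in H1D and 1.13 and 1.27 in H2D.

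Tumour, growth and damage genes did not pass the threshold. Of 22 tumour and fetal liver genes 0 were called, 1 was higher and 6 lower at unadjusted p under 0.05, and the median was -0.31. Afp, the fetal serum protein, was at 37.4 and 41.2 FPKM in H1D and 30.2 and 48.8 in H2D, so the groups overlapped (-0.03 ± 0.38, adjusted p = 0.997). Gpc3, an oncofetal proteoglycan, was at 146 and 95.6 FPKM in H1D and 93.0 and 38.2 in H2D (-0.98 ± 0.56, adjusted p = 0.664). Mki67, which marks dividing cells, was at 6.16 and 3.00 FPKM in H1D and 3.49 and 3.75 in H2D (-0.23 ± 0.28, adjusted p = 0.893). Of 31 cell cycle genes 0 were called, and 0 were higher or lower at unadjusted p under 0.05 (median -0.23). Of 21 p53 targets 0 were called and 7 were lower and 0 higher at unadjusted p under 0.05 (median -0.25), with Eda2r, a TNF receptor family member, at 2.48 and 2.04 FPKM in H1D and 0.633 and 1.06 in H2D (-1.05 ± 0.22, adjusted p = 0.154).

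The lipid lists held no call. Of 27 fatty acid synthesis genes and 42 fatty acid oxidation genes 0 were called, with medians of -0.18 and -0.13. Acsl1, a long-chain acyl-CoA synthetase, was at 133 and 157 FPKM in H1D and 127 and 108 in H2D (-0.30 ± 0.14, adjusted p = 0.53). Scd1, stearoyl-CoA desaturase, overlapped between the groups at 1049 and 1313 FPKM in H1D and 1230 and 1464 in H2D (0.19 ± 0.38, adjusted p = 0.939). Of 31 cholesterol synthesis and uptake genes 0 were called and 4 were lower and 0 higher at unadjusted p under 0.05 (median -0.26), among them Dhcr7 at 71.8 and 64.1 FPKM in H1D and 45.0 and 44.0 in H2D (-0.60 ± 0.12, adjusted p = 0.14). Apoa1, the main protein of high-density lipoprotein, was at 18765 and 14300 FPKM in H1D and 10676 and 8992 in H2D (-0.74 ± 0.18, adjusted p = 0.219). Aldh2, the mitochondrial aldehyde dehydrogenase, was at 707 and 857 FPKM in H1D and 743 and 659 in H2D, which overlap (-0.15 ± 0.12, adjusted p = 0.793).

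The metallothioneins Mt1 and Mt2, which bind zinc and copper, were higher in both H2D pools without passing the test. Mt1 was at 444 and 656 FPKM in H1D and 1657 and 2168 in H2D (1.81 ± 0.61, adjusted p = 0.387), and Mt2 gave 2.15 ± 0.87 (adjusted p = 0.473). The zinc importer Slc39a4 was at 54.0 and 53.8 FPKM in H1D and 29.8 and 23.4 in H2D (-1.02 ± 0.16, adjusted p = 0.0886). Id1, a target of BMP signalling, was at 26.2 and 19.2 FPKM in H1D and 7.29 and 8.604 in H2D (-1.45 ± 0.29, adjusted p = 0.137).

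The remaining lists held 0 calls as well. Growth hormone axis, glucocorticoid-responsive and glucose metabolism genes had 4, 6 and 3 members higher and 0, 2 and 2 lower at unadjusted p under 0.05, with medians of 0.23, 0.20 and 0.15. Bile acid genes had 2 higher and 4 lower (median 0.17), with Cyp7a1, the rate-limiting enzyme of bile acid synthesis, at 27.0 and 48.3 FPKM in H1D and 28.4 and 21.7 in H2D, which overlap. Of 19 immediate early genes 0 were higher and 4 lower (median -0.18). Fos, a subunit of the transcription factor AP-1, was at 5.94 and 8.94 FPKM in H1D and 2.96 and 3.51 in H2D (-1.07 ± 0.21, adjusted p = 0.129). Of 26 ER stress and ATF4 genes 0 were higher and 2 lower (median -0.18), with Trib3, a pseudokinase induced by ATF4, at 17.9 and 13.7 FPKM in H1D and 8.49 and 5.74 in H2D (-1.11 ± 0.22, adjusted p = 0.137). The 46 cytosolic ribosomal protein genes and 13 mitochondrially encoded genes had 0 members at unadjusted p under 0.05 in either direction, with medians of 0.02 and 0.07.

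**Figure D4:**
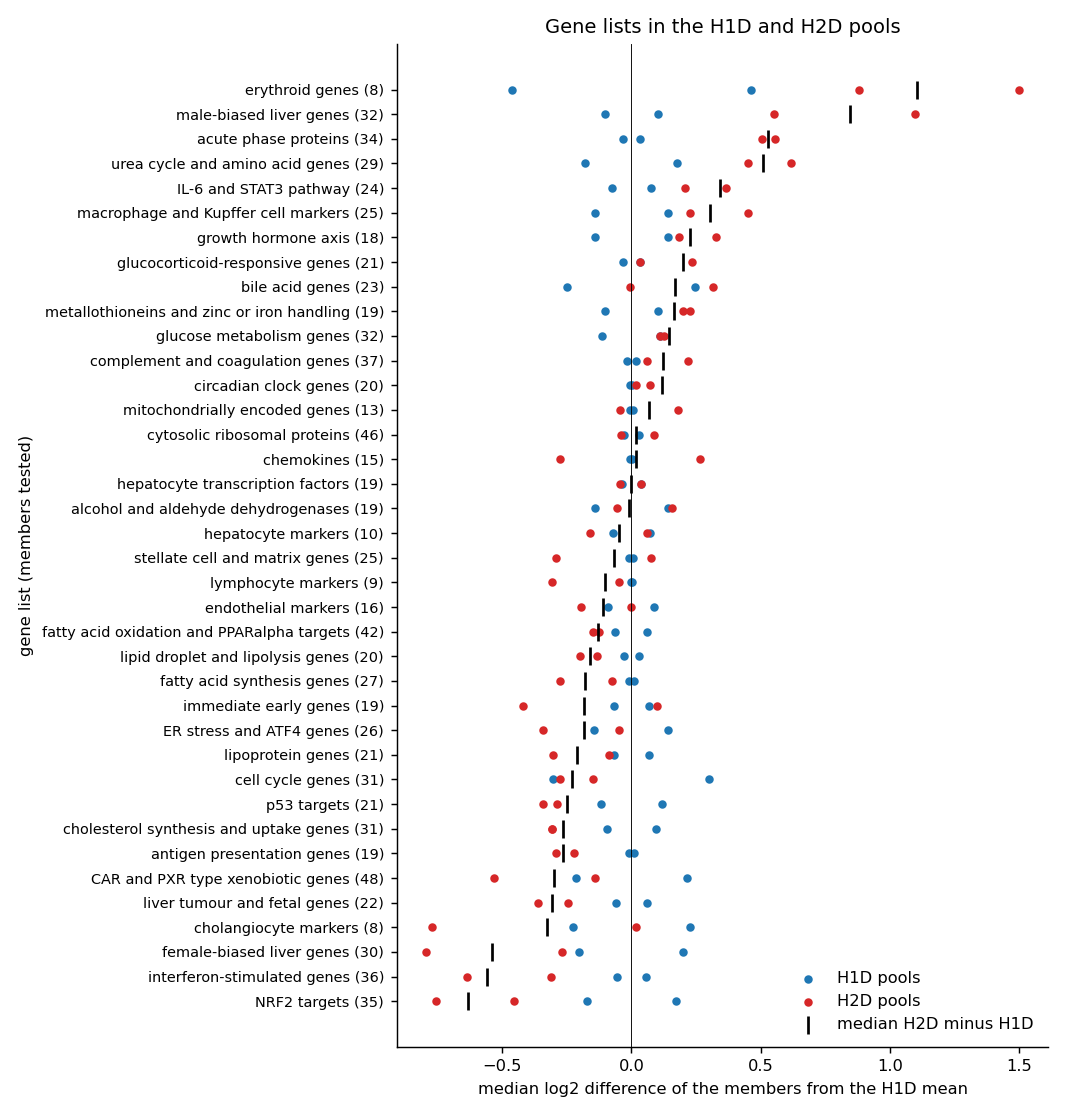
Median over the tested members of each gene list (y axis, number tested in brackets) of the difference in log2(FPKM + 0.5) from the H1D mean (x axis), for the H1D pools (blue) and H2D pools (red), with the median H2D minus H1D difference as a black bar; the neutrophil list is left out because most of its members passed the filter through H2D or H3D. Erythroid, male-biased, acute phase and amino acid lists lie highest and the NRF2, interferon and female-biased lists lowest, with medians of 1.10, 0.84, 0.53, 0.51, -0.63, -0.56 and -0.54.

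Among genes that were lower but not called, Rgs16, a G protein brake that follows glucose and fasting signals in liver, was at 82.4 and 63.0 FPKM in H1D and 21.5 and 7.42 in H2D (-2.46 ± 0.70, adjusted p = 0.293). Angptl8, an insulin-induced inhibitor of lipoprotein lipase complexes, was at 178 and 89.3 FPKM in H1D and 47.0 and 31.1 in H2D (-1.71 ± 0.37, adjusted p = 0.167). The epithelial keratins Krt20 and Krt23 gave -2.30 ± 0.62 and -1.77 ± 0.34 (adjusted p = 0.26 and 0.129). In these 4 genes the groups did not overlap, which the naming rule required. Gsta1 and Gstp2, glutathione S-transferases, gave -1.90 ± 0.51 and -1.76 ± 0.58 (adjusted p = 0.267 and 0.376). With Prom2, Slc7a11 and Cyp2a5 above, Xlr4a, Xlr3b and Efcab7 complete the 12 largest decreases among symbols other than clone or predicted-gene numbers, at -2.22 ± 0.81, -1.88 ± 0.51 and -1.77 ± 0.48 (adjusted p = 0.437, 0.273 and 0.266).

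Another 2 uncalled genes with larger differences than most of these fall outside the naming rule and were picked after their values were seen. B230307C23Rik, on chromosome 16, was at 40.7 and 133.5 FPKM in H1D and 2.06 and 10.2 in H2D (-3.83 ± 0.68, adjusted p = 0.099). It was at 82.0 and 87.9 FPKM in NCD but at most 1.61 in H3D and Nor, so its level was high in the chow-fed DEN and H1D pools alone. Moxd1, related to dopamine beta-hydroxylase, was at 0.0338 and 0.0107 FPKM in H1D and 3.61 and 21.6 in H2D (4.19 ± 0.94, adjusted p = 0.177), and H2D pool 2 was far above every other pool.

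By r and by the number of large differences, the H1D pools differed from each other about as the H2D pools did. Over the genes tested, Pearson r was 0.988 within H1D and 0.989 within H2D, and 0.973 to 0.986 between the groups. A difference of over 1 on the log2 scale was seen in 137 genes within H1D and 127 within H2D, and in 207 to 411 between pools of the 2 groups. The closest pools of different groups were H1D pool 2 and H2D pool 1. The median absolute log2 difference was larger within H1D (0.148) than within H2D (0.122). From H1D pool 2 it was 0.129 to H2D pool 1 and 0.145 to H2D pool 2. From H1D pool 1 it was 0.162 and 0.168. By this measure H1D pool 2 lay nearer to both H2D pools than to H1D pool 1.

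Noncoding transcripts were tested in the same way from 3 tables stacked together, with 1493 of 2030 transcripts reaching 0.5 FPKM in 2 libraries. None was called in limma (0 of 1493, background 0.0%, lowest adjusted p 0.0912). At unadjusted p under 0.05, 63 were higher (4.22%) and 65 lower (4.35%), and the pools did not overlap in 21.1% of transcripts with H2D above and 20.4% with H2D below. The unannotated antisense transcript LNC_000252 was at 1.05 and 1.51 FPKM in H1D and 7.04 and 8.39 in H2D (2.21 ± 0.34, adjusted p = 0.0912). The lincRNA 2310034O05Rik was at 14.6 and 13.1 FPKM in H1D and 4.57 and 4.91 in H2D (-1.45 ± 0.21, adjusted p = 0.0912), and had the smallest p. Both were without overlap.

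Among the other transcripts with the largest differences, LNC_000342, Gm15998 and Gm42889 were higher by 2.12 ± 0.54, 1.70 ± 0.40 and 1.69 ± 0.27 on the log2 scale (adjusted p = 0.234, 0.215 and 0.0912). Mirt2, known as an inflammation-induced lncRNA of heart and macrophages, was at 1.82 and 2.51 FPKM in H1D and listed at 0 in both H2D pools (adjusted p = 0.215). Gm28513 was at 5.53 and 5.25 FPKM in H1D and 1.05 and 0.379 in H2D (-2.33 ± 0.44, adjusted p = 0.137). LNC_000194 and Gm17114 gave -2.05 ± 0.50 and -1.77 ± 0.41 (adjusted p = 0.228 and 0.215). H19, the imprinted fetal RNA, overlapped between the groups at 84.1 and 38.6 FPKM in H1D and 75.9 and 93.0 in H2D (0.56 ± 0.49, adjusted p = 0.826).

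Small RNA gave 1 library per group, so no test was possible and intervals are Poisson, covering counting error only. Values are RPM, miRNA reads scaled so that libraries have equal totals. Of 289 miRNAs with at least 100 reads in the 2 libraries together, 6 were at least 2-fold higher in H2D on RPM + 0.5 (2.08%) and 17 at least 2-fold lower (5.88%). The median log2 ratio was 0.04. The mature sequences are shown for the 5 with the largest ratio upwards and for the 4 of the 5 downwards that RefSeq's table (GRCm38.p6) lists, with the seed, bases 2 to 8, in capitals. No seed was shared among these 9.
miR-137-3p, chr3:118433901-118433923, plus strand: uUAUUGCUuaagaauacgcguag
miR-210-3p, chr7:141221407-141221428, minus strand: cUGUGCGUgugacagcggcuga
miR-881-3p, chrX:66801954-66801975, minus strand: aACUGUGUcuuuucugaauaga
miR-592-5p, chr6:27936711-27936733, minus strand: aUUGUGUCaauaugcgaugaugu
miR-802-5p, chr16:93369737-93369758, plus strand: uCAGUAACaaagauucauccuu
miR-434-5p, chr12:109594528-109594549, plus strand: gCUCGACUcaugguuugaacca
miR-337-5p, chr12:109585818-109585839, plus strand: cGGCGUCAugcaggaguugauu
miR-200b-3p, chr4:156055685-156055706, minus strand: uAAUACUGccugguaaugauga
miR-31-5p, chr4:88910614-88910635, minus strand: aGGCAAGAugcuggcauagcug

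miR-210-3p, induced by hypoxia in many cells, was at 22.8 RPM in H1D (95% interval 19.6 to 26.5) and 94.9 in H2D (88.4 to 102), a log2 ratio of 2.03. It stood between 14.9 and 15.7 RPM in the chow groups and at 66.3 in H3D. miR-802-5p, known to be raised in the liver of obese mice, was at 32.5 RPM in H1D (28.5 to 36.8) and 102 in H2D (94.98 to 109), a log2 ratio of 1.63. For both miRNAs the H2D library was the highest of the 5. miR-881-3p and miR-592-5p were at 11.7 and 24.3 RPM in H1D and 41.6 and 81.8 in H2D, and both were higher in Nor (55.6 and 126 RPM) and low in H3D (6.12 and 22.7). miR-137-3p was at 2.24 RPM in H1D from 17 reads and 12.1 in H2D from 101 reads.

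miR-375-3p, a miRNA of endocrine and epithelial cells, was at 34.3 RPM in H1D (30.3 to 38.7) and 6.97 in H2D (5.30 to 9.02), a log2 ratio of -2.22. The other 3 groups were at 3.77 to 4.95 RPM, so H1D was the library that stood out. miR-200b-3p, of the family that keeps epithelial cells from mesenchymal change, was at 957 RPM in H1D (935 to 979.6) and 372 in H2D (359 to 385), a ratio of -1.36. All 5 listed members of the miR-200 family had negative ratios, 4 of them past 2-fold, and their sum was 1948 RPM in H1D and 955 in H2D. The family was picked after its values were seen. miR-31-5p was at 586 RPM in H1D and 235 in H2D, a ratio of -1.32.

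miR-434-5p and miR-337-5p come from the imprinted cluster on chromosome 12 (109585818 to 109743784 for the miRNAs listed), which is expressed from the maternal chromosome together with Meg3, Rian and Mirg. In H1D they were at 133 and 44.3 RPM, and in H2D at 47.0 and 15.5. Of the 33 listed miRNAs placed in the cluster by position, 32 had a negative log2 ratio, against 129 of 289 over all. Among these 33, 9 were past 2-fold and the median was -0.51. The 1 positive ratio among them was that of miR-154-5p, at 0.06. miR-376c-3p, close in name to the cluster's miR-376b-3p, was not placed by position and is not counted. It was at 7.65 RPM in H1D and 8.06 in H2D, a log2 ratio of 0.07. The sum of the 33 was 2655 RPM in H1D, against 1663 in H2D and 858 in H3D. It was 6184 in NCD and 391 in Nor, so it was highest in chow-fed DEN liver. Members of the cluster come from shared transcripts and are not independent, miR-3071-5p and miR-136-3p overlap on opposite strands and may share reads, and the cluster was picked after its values were seen. In the long RNA pools, Meg3 was at 1.81 and 0.808 FPKM in H1D and 0.103 and 0.689 in H2D (-1.04 ± 0.61, adjusted p = 0.729) for its transcript with the smaller p. The Rian transcript with the smaller p, looked up after values had been seen, was at 6.38 and 1.69 FPKM in H1D and 0.319 and 3.36 in H2D, which overlap.

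**Figure D5:**
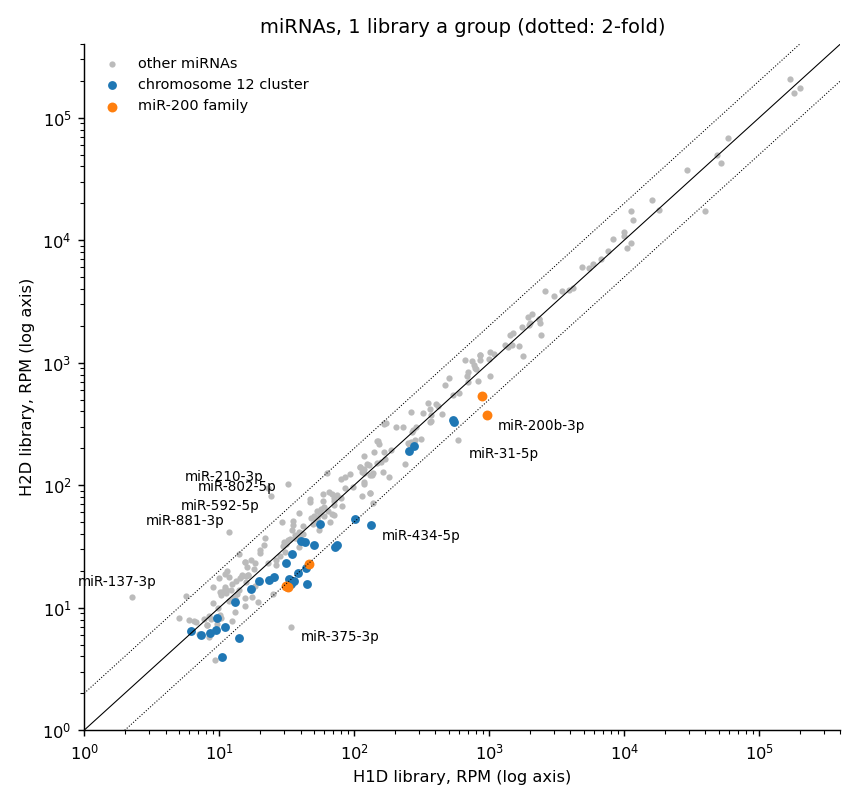
Level of each of the 289 miRNAs in the H1D library (x axis) and the H2D library (y axis), in RPM on log axes, 1 library per group, with equality as a solid line and 2-fold limits dotted. With 1 exception, members placed in the chromosome 12 cluster by position (blue) lie below the line of equality, as does the miR-200 family (orange). miR-210-3p and miR-802-5p lie above the upper limit.

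Of 14 miRNAs at 10000 RPM or more in H1D, miR-146b-5p alone was past 2-fold. It is a relative of miR-146a-5p induced by NF-kB, fell outside the naming rule and was picked after its value was seen. It was at 40006 RPM in H1D and 17454 in H2D, a log2 ratio of -1.20, and at 23264 RPM in H3D, 25979 in NCD and 109 in Nor. H1D was thus the highest library and H2D the lowest of the 4 from DEN-treated mice. miR-122-5p, the main hepatocyte miRNA, had a log2 ratio of -0.19, miR-192-5p one of 0.20 and miR-21a-5p one of 0.31. miR-34a-5p, a p53 target, was at 168 RPM in H1D and 165 in H2D, with intervals that overlap. miR-223-3p, which is abundant in neutrophils, was at 29.2 RPM in H1D (25.4 to 33.3) and 49.7 in H2D (45.0 to 54.7). miR-142a-3p, of blood cells in general, was at 111 RPM in H1D and 140.3 in H2D, and the red cell miRNAs miR-451a and miR-144-3p gave ratios of 0.47 and -0.06. Unlike miR-146b-5p, the inflammatory miRNAs miR-146a-5p and miR-155-5p were within 2-fold, with ratios of 0.21 and 0.02, as was miR-27a-3p at 0.12.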

How the data were processed

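Per the labels' protocols, long RNA was depleted of ribosomal RNA and read as pairs of 125 nt, and small RNA as single reads of 50 nt. Per the submitters' processing notes, the GRCm38 build was used, with TopHat2 2.0.9 and Bowtie2 2.0.6 among the tools named. The notes also name Cuffdiff 2.1.1 and Cufflinks 2.1.1, then SAMtools 0.1.18 and Picard 1.96, and GATK, without saying what each did. The authors deposited FPKM per transcript in 4 tables. The number of long RNA reads is not given, so the depth behind FPKM is unknown. For small RNA the authors deposited counts of reads for each mature miRNA. Beside them the authors deposited a column whose values are RPM. No reads at all would leave room for 3 reads, which is 0.361 RPM in H2D and 0.396 in H1D.

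The 50660 mRNA transcripts were summed to 21949 gene identifiers. Genes with at least 1 FPKM in 2 of 10 libraries were tested as log2(FPKM + 0.5) with limma 3.58.1 (R 4.3.3), with 1 coefficient per group, a variance trend and 5 residual degrees of freedom, two-sided, Benjamini-Hochberg over all genes. Positions come from RefSeq by symbol. The procedure was tested on simulated data. Plots were drawn with matplotlib 3.10.9. The comparison, its 39 gene lists and the genes named were chosen with earlier results of these data known. The naming rule took the 12 largest changes in each direction among genes called without overlap of pools and with 2 FPKM or more in either mean (filled with uncalled genes at unadjusted p under 0.05), up to 4 members of a list by smallest p with any called, 24 fixed genes, 5 likeness genes, 4 noncoding transcripts and 5 miRNAs in each direction, and fixed ones. Models with only a clone number were passed over. Not every gene the rule gives is described, and 1 called gene is not reported here.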

Additional observations from a re-analysis of the deposited data

How the results depend on the processing

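The 17 genes called kept their direction in every other fit by gene in which they were tested, while the number of genes called depended on the setting. It was 17 (the same genes) with a pseudocount of 1 and with median-of-ratios scaling, 16 with equal FPKM sums (15 of them among the 17), 13 with quantile scaling (12 among the 17) and 12 with a stricter filter (12 among the 17). It was 0 with a pseudocount of 0.1 (1090 genes at unadjusted p under 0.05), 0 with no variance trend (1136) and 0 when each transcript was tested (1524), and 3 with no filter and 1 with the H1D and H2D libraries alone, of which 0 were among the 17. Leaving out 1 library at a time gave 0 to 35 calls. The count was 0 without either H2D pool, H1D pool 1 or either NCD pool, 20 without H1D pool 2, 28 and 35 without Nor pool 1 and Nor pool 2, and 30 and 29 without H3D pool 1 and H3D pool 2. The cause was not tested. Calls within the gene lists, 7 counting a gene once for each list, went to 0 with a pseudocount of 0.1, no filter, the H1D and H2D libraries alone or no variance trend, and to 0 to 22 when 1 library was left out. The noncoding count was 0 in these settings and moved only slightly when 1 library was left out. The miRNA count of 23 became 60 with no minimum of reads and 5 with at least 1000 reads.

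The sample titles number the pools and do not say whether pools of the same number were handled together. The pool 1 minus pool 2 deviations of H1D and H2D correlated at -0.053, the lowest of 10 pairs of groups (highest 0.225). These values cannot show whether pools were paired, and the main fit used no pairing. With a replicate block 8 genes were called, 6 of them among the 17.

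Signs turned for genes near no difference. Scd1 was -0.045 with quantile scaling. When 1 library was left out, Afp ran from -0.37 to 0.31 (above 0 without H1D pool 2, at 0.04, and without H2D pool 1), Mki67 from -0.69 to 0.23 (without H1D pool 1) and H19 from -0.0022 (without H1D pool 2) to 1.11. The limits are 2 pools a group with unknown depth, calls just inside the threshold, and 1 small RNA library a group.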
